A study of Oryctolagus cuniculus with 30 samples.

Results

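A set of 33 array probes was selected for little difference between the closing of a rabbit ear wound and day 3 after closure and for a gain of signal by day 5, whether or not the wound was covered. The probes were chosen from 14558 probes of the design's AF class (23369 probes in all) by the authors' own values, taken as log2 intensity. A probe was selected where its highest group mean was at least 9 and its mean at day 5 exceeded that at day 3 by at least 1 in uncovered and in covered wounds. Its day 3 means had also to lie within 0.4 of day 0 in both arms, its day 0 mean within 1 of unwounded skin, and its 2 day 5 means within 0.8 of each other. All group differences below were therefore used by, or bounded by, this choice, and they are given as a description with no test.

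RNA from the epidermis of female rabbits of the New Zealand White breed was hybridised to 30 Agilent arrays in 1 colour. The 6 groups were unwounded skin (2 arrays), wounds at day 0 (6), uncovered wounds at day 3 (6) and day 5 (6), and covered wounds at day 3 (5) and day 5 (5). Wounds were shallow grids of incisions in both ears, dressed with 1 layer of Tegaderm (a clear, adhesive film) while new epidermis closed them, which took 2 days and ends at day 0 here. The film was then taken off the right ear (the NonOccluded samples, called uncovered) and 4 further layers were put on the left ear (the FullyOccluded samples, called covered). Every epidermis, that of unwounded skin included, was loosened from the dermis in ammonium thiocyanate (0.5 M, 30 min). No label says which rabbit an array came from, so any spread given here is between samples, and ears of 1 animal may be in both arms.

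Closure of a wound by a sheet of migrating keratinocytes is followed by a period in which the new epidermis stratifies, differentiates and restores its barrier to water loss. A film dressing takes over part of that barrier and keeps the surface hydrated, so the 2 arms differ in the surroundings in which the same maturation proceeds. The files pair the probes with rabbit sequence contigs but not with gene names, so the members are named by probe and their functions are not described. For the same reason the labelled tissue could not be set against marker genes.

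The selected probes are 60 bases long, and their sequences alone do not name a transcript. The 10 with the largest smaller gain of the 2 arms are printed because the values below turn on them, with any AGAAGA run in capitals, since that run was more common among the selected probes than in the rest.
UF_Ocu_AF_100701: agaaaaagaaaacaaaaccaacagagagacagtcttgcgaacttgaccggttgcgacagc
UF_Ocu_AF_100702: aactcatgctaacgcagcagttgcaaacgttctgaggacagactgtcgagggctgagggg
UF_Ocu_AF_108488: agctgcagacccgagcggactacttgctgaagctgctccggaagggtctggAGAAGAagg
UF_Ocu_AF_101707: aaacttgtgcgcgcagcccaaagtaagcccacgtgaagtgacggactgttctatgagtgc
UF_Ocu_AF_101706: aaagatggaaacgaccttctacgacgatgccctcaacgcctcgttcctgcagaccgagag
UF_Ocu_AF_103169: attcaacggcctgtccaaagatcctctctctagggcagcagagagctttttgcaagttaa
UF_Ocu_AF_108644: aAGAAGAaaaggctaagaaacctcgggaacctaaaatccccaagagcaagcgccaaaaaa
UF_Ocu_AF_112025: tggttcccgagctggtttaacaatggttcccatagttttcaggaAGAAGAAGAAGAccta
UF_Ocu_AF_102141: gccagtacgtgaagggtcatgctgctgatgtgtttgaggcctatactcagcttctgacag
UF_Ocu_AF_101312: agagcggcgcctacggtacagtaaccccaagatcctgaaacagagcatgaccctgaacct
The first and second of these lie on contig nag36d07.x1, and UF_Ocu_AF_101706 and UF_Ocu_AF_101707 lie together on another contig. UF_Ocu_AF_108023 and UF_Ocu_AF_108024 likewise share contig R4.406.C1, so that the 33 probes came from 30 contigs. No pair among the 528 pairs of selected probes shared a run of 12 bases on the strand printed. Of the conditions, those on the gains removed the most. Of 7795 AF probes with a group mean of at least 9, 351 gained at least 1 in uncovered wounds and 167 of these did so in covered wounds. The 2 conditions on day 3 left 54 of the 167, the condition on unwounded skin 41, and that on the 2 arms at day 5 left 33. The same conditions held for 12 of 1675 such probes of the UN class (0.716%) against 0.423% of the AF class, and for 0 of 73 in the AM class. The meaning of these class letters is not given in the sources used here.

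Averaged over the 33 probes, the 19 arrays taken before day 5 and the 11 taken at day 5 did not overlap. The mean log2 intensity of the members was 10.14 and 10.38 in the 2 unwounded samples. At day 0 it ran from 9.49 through a median of 9.88 to 10.55. At day 3 it ran from 9.50 through 9.84 to 10.22 in uncovered wounds, and was 9.80, 9.75, 9.69, 10.28 and 10.32 in the 5 covered ones. The 3 early groups therefore covered about the same range. At day 5 the uncovered samples ran from 11.33 through 11.41 to 11.49, and the covered samples were at 11.41, 11.22, 11.39, 11.31 and 11.32. Every day 5 array thus stood above every earlier array, and the 2 arms met at nearly the same level. In this tissue RNA, more cells of a type and more RNA per cell cannot be told apart.

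**Figure D1:**
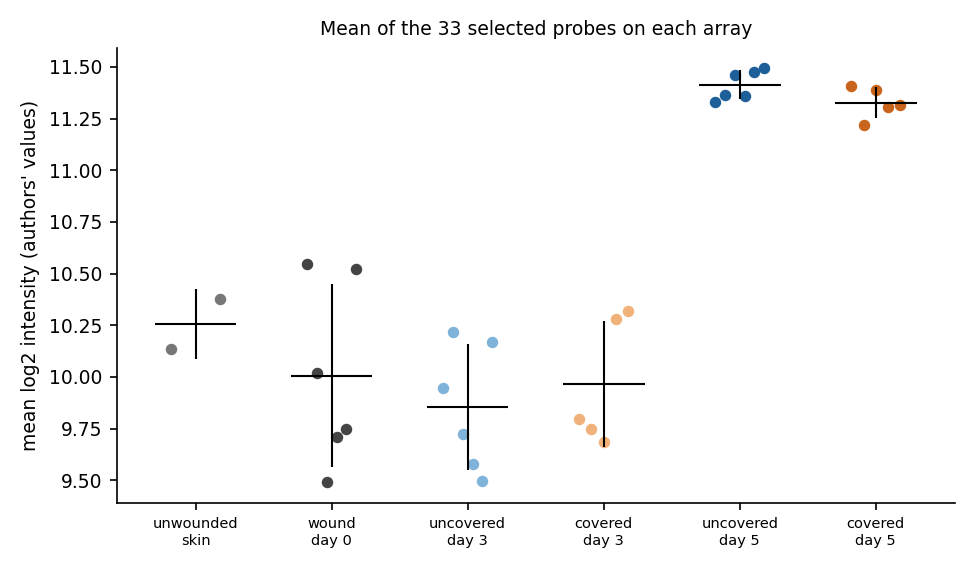
Mean log2 intensity of the 33 selected probes on each array (points), with the group mean (horizontal bar) and 1 SD (vertical bar), for the 6 groups. The 11 day 5 arrays lie between 11.22 and 11.49, above all 19 earlier arrays, the highest of which is at 10.55; the probes were selected for this difference.

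The gain from day 3 to day 5 had a median of 1.48 in uncovered and 1.25 in covered wounds on the log2 scale over the 33 probes, against -0.07 and -0.05 over the 7795 AF probes of that brightness. It ranged from 1.04 to 2.61 in uncovered wounds and from 1.01 to 2.37 in covered ones. Most members were near the lower bound. The smaller of the 2 gains was under 1.3 in 20 probes, at least 1.5 in 7 and at least 2 in 2. The uncovered gain was the larger in 26 of the 33. At day 3 the covered mean was above the uncovered mean in 25 members, with a median difference of 0.09. In the 7795 AF probes it was above in 4381, with a median of 0.05. At day 5 itself the covered mean was above the uncovered mean in 14, with a median difference, covered minus uncovered, of -0.03. Over the members the 2 gains correlated at r = 0.81, in probes that had to exceed 1 in both.

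Most members separated array by array. In uncovered wounds all day 5 arrays were above all day 3 arrays for 32 of the 33 probes, where 9.94% of the 7795 AF probes did the same. In covered wounds this held for 31, against a background of 9.7%, and in both arms for 31, against 4.35%. For 22 probes, against 1.83% of the AF probes, every day 5 array also exceeded every day 0 and day 3 array. In the other 11, the lowest day 5 array was at or below the highest early one. The probes whose arms overlapped were UF_Ocu_AF_105960 in both arms and UF_Ocu_AF_101594 in covered wounds. In the limma fit of the scanner signals, with calls at a Benjamini-Hochberg adjusted p under 0.05, all 33 were called higher in uncovered wounds at day 5 than at day 3, where 28.4% of the 12342 tested probes were. All 33 were also called in covered wounds, against 15.1%. Nothing is read from these counts, since the choice of probes used the same contrasts. On these signals the fit called UF_Ocu_AF_102411 lower in covered than in uncovered wounds at day 5, by a log2 difference of -0.70 (limma, adjusted p = 0.034), 1 of 33 members against 13.7% of all tested probes in either direction. UF_Ocu_AF_100204 was called higher in covered wounds at day 3 than at day 0 (1.1, limma, adjusted p = 0.028), 1 of 33 against 44.5%, although its means differed by under 0.4 on the authors' values. In uncovered wounds limma called 0 members between day 0 and day 3 (2 at an unadjusted p under 0.05), against 35.7%. Small differences in these 3 comparisons were conditions of the choice too.

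**Figure D2:**
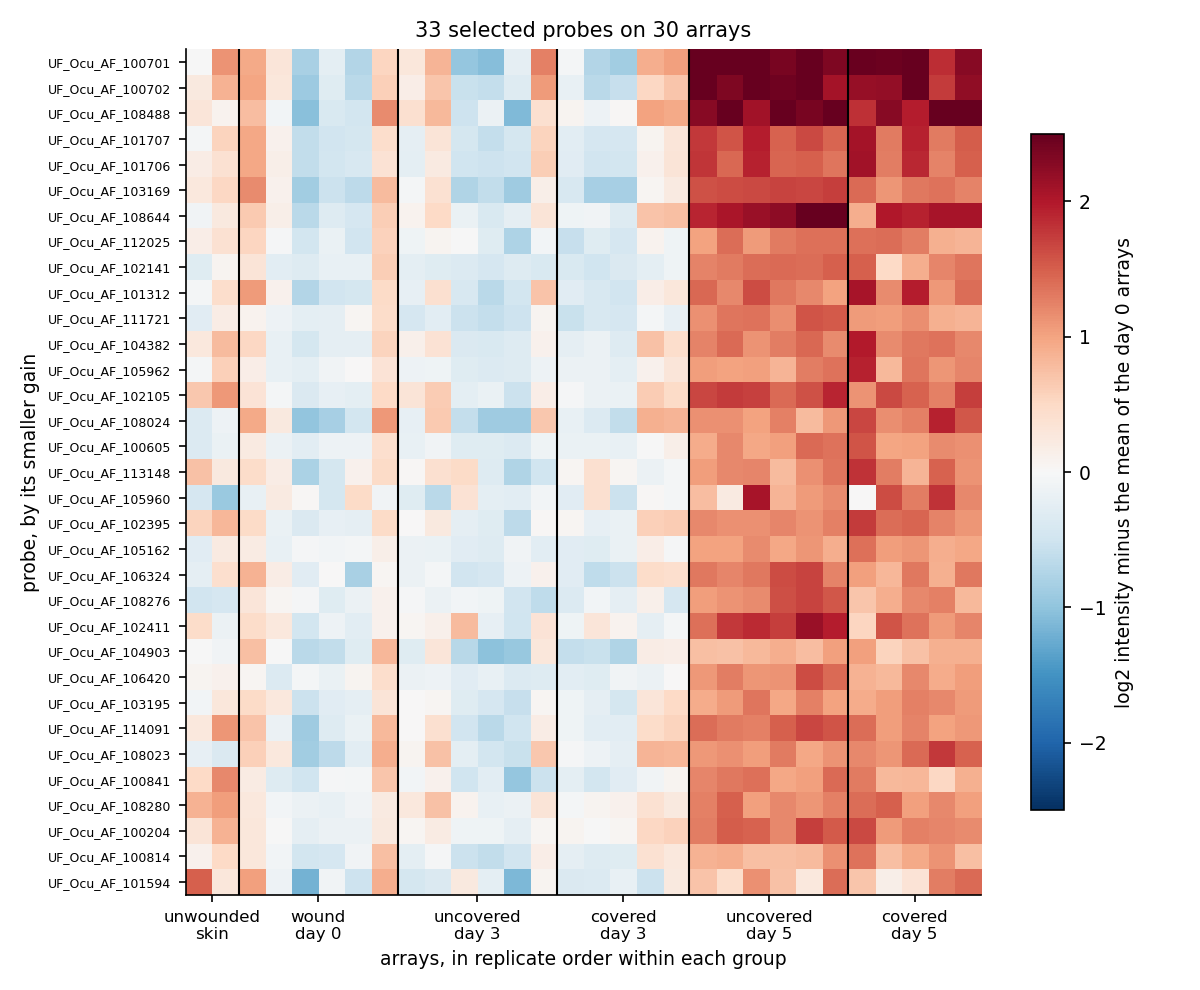
Each of the 33 selected probes (rows, by the smaller of its 2 gains) on each of 30 arrays (columns, by group), coloured by log2 intensity minus the probe's mean over the day 0 arrays; colours stop at 2.5 in either direction. The day 5 blocks of both arms are high in nearly all rows, and within the day 0 and day 3 blocks the same few arrays are higher in most rows.

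By the smaller of the 2 gains, the pair on contig nag36d07.x1 came first, and it was also the brightest. UF_Ocu_AF_100701 was at 12.34 and 13.48 in unwounded skin and ran from 11.54 through 12.38 to 13.29 at day 0. In uncovered wounds it ran from 11.28 through 12.38 to 13.62 at day 3 and from 14.68 through 15.05 to 15.25 at day 5. In covered wounds it was at 12.29, 11.62, 11.48, 13.25 and 13.38 at day 3 and at 14.82, 14.79, 15.40, 14.20 and 14.63 at day 5. No day 5 array of either arm came within the range of the earlier groups, although those groups were widely spread. The gain was 2.61 ± 0.40 in uncovered wounds (SE, n = 6 and 6), a 6.12-fold difference of geometric means. It was 2.37 ± 0.44 in covered wounds (SE, n = 5 and 5), 5.15-fold. Its contig partner UF_Ocu_AF_100702, which shares no 12 bases with it, gained 2.39 ± 0.30 and 2.31 ± 0.34. The 2 probes of the contig thus gave gains that differed by less than their errors.

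UF_Ocu_AF_108488 gained nearly as much at a lower level. It was at 10.83 and 10.61 in unwounded skin and ran from 9.49 through 10.31 to 11.71 at day 0. In uncovered wounds it moved from 9.44, 10.66 and 11.35 (lowest, median and highest at day 3) to 12.63, 12.99 and 13.51 at day 5. In covered wounds it was at 10.61, 10.41, 10.57, 11.54 and 11.47 at day 3 and at 12.36, 12.81, 12.49, 13.21 and 13.16 at day 5. Neither arm overlapped. Its gains were 2.5 ± 0.31 and 1.89 ± 0.30, and its day 5 level stood 2.29 (uncovered) and 2.08 (covered) above unwounded skin, the largest such differences among the members.

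UF_Ocu_AF_103169 had the smallest SD at day 5 of these 10 probes, in both arms. It was at 11.37 and 11.64 in unwounded skin and ran from 10.24 through 10.89 to 12.28 at day 0. Uncovered wounds ran from 10.21 through 10.78 to 11.50 at day 3 and from 12.70 through 12.78 to 12.85 at day 5, where the SD was 0.0499. Covered wounds were at 10.71, 10.29, 10.29, 11.15 and 11.33 at day 3 and at 12.53, 12.22, 12.43, 12.47 and 12.34 at day 5. The highest day 0 array reached into the covered day 5 range, so this probe is among the 11 whose day 5 and early arrays met. Its gains were 1.96 ± 0.22 and 1.65 ± 0.22.

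UF_Ocu_AF_108644 had 1 array apart from the rest of its group. It was at 8.81 and 9.15 in unwounded skin and ran from 8.23 through 8.82 to 9.55 at day 0. Uncovered wounds ran from 8.52 through 8.86 to 9.41 at day 3 and from 10.80 through 11.10 to 11.48 at day 5. Covered wounds were at 8.79, 8.82, 8.58, 9.61 and 9.65 at day 3 and at 9.80, 10.90, 10.82, 10.96 and 10.97 at day 5. The first covered day 5 array lay more than 1 below the other 4 and just above the 2 highest day 3 arrays. The gains were 2.22 ± 0.18 and 1.60 ± 0.32, and the covered gain was 1.82 without that array.

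The contig pair UF_Ocu_AF_101706 and UF_Ocu_AF_101707 was dim until day 5. UF_Ocu_AF_101707 was at 8.58 and 9.19 in unwounded skin and ran from 8.01 through 8.48 to 9.60 at day 0. Its gains were 1.79 ± 0.21 and 1.77 ± 0.22, and those of UF_Ocu_AF_101706 were 1.73 and 1.75. Both probes therefore gave almost equal gains in the 2 arms. UF_Ocu_AF_102141 was lower still, with uncovered wounds from 8.12 through 8.22 to 8.30 at day 3 and from 9.80 through 9.95 to 10.05 at day 5. Its covered day 5 arrays were more spread, at 10.05, 9.06, 9.46, 9.77 and 9.90. The remaining members of the 10 gained 1.45 ± 0.14 and 1.42 ± 0.17 (UF_Ocu_AF_112025) and 1.40 ± 0.24 and 1.68 ± 0.25 (UF_Ocu_AF_101312), the latter with the larger gain under cover.

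**Figure D3:**
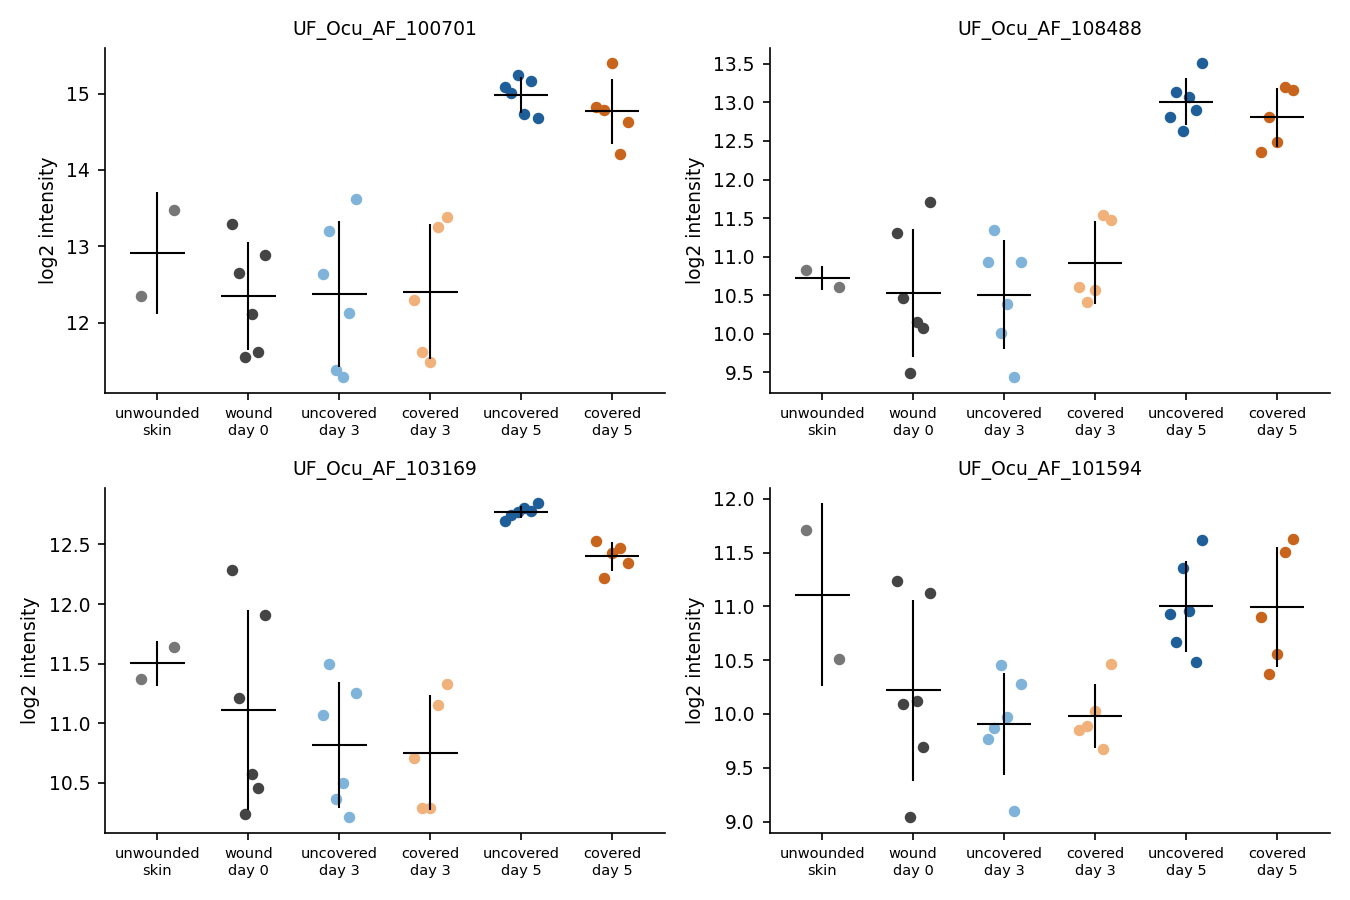
Log2 intensity (authors' values) of 4 selected probes on each array (points), with the group mean and 1 SD, each panel on its own scale. UF_Ocu_AF_100701, UF_Ocu_AF_108488 and UF_Ocu_AF_103169 show day 5 levels above unwounded skin, while UF_Ocu_AF_101594 at day 5 lies within the range of its 2 unwounded samples or close to it.

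Day 5 levels were mostly above unwounded skin, a difference that the rule bounds from below. Both day 5 means were above the unwounded mean in 32 of the 33 probes, against 35.3% of the bright AF probes, and at least 1 above it in 15. In 29, against 6.09%, every day 5 array was above both unwounded arrays. The median excess was 1.18 in uncovered and 0.99 in covered wounds. Of the members, 21 were called higher than unwounded skin in uncovered wounds, against 21.9% of all tested probes, and 14 in covered wounds, against 6.6%. Nothing is read from these counts either, and only 2 unwounded arrays entered these differences.

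The 3 probes named next ended closest to unwounded skin, with a mean excess under 0.5. UF_Ocu_AF_101594 was at 11.71 and 10.51 in unwounded skin, ran from 9.04 through 10.11 to 11.24 at day 0, and lay within 9.10 to 10.47 on all day 3 arrays of both arms. At day 5 it ran from 10.48 through 10.95 to 11.61 in uncovered wounds and was at 10.90, 10.37, 10.56, 11.50 and 11.63 in covered ones. Relative to the unwounded mean of 11.11, its day 5 means stood at -0.11 in both arms, the only member below 0. UF_Ocu_AF_100841, at 11.60 and 12.30 in unwounded skin, had means of 11.11 at day 0, 10.73 and 10.90 at day 3, and 12.32 and 11.97 at day 5. UF_Ocu_AF_108280, at 9.70 and 9.87, had means of 8.82, 9.0 and 8.98 before 10.05 in both arms. The means of these probes were below unwounded skin at day 0 and within 0.5 of it at day 5. Over all members, 24 had a day 0 mean below unwounded skin and 9 above it, with a median difference of -0.25. Of the 7795 bright AF probes, 3940 were above it, with a median difference of 0.01. The rule bounded this difference in the members, and only 2 unwounded arrays entered it.

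Before day 5 the members were high on the same few arrays. At day 0, replicates 1 and 6 had member means of 10.55 and 10.52, and the other 4 lay between 9.49 and 10.02. These 2 arrays were the 2 highest of the group in 29 of the 33 probes and in 22.6% of the bright AF probes. In uncovered wounds at day 3, replicates 2 and 6 were the 2 highest in 19 members (22.3% of bright AF probes), and in covered wounds replicates 4 and 5 were in 27 (30.4%). The deviation of bright AF probes from their mean over all arrays correlated with G and C content at 0.17 and 0.04 on the 2 day 0 arrays and at -0.33 to -0.02 on the others. In uncovered wounds at day 3 it was 0.09 on both and -0.30 to -0.13 on the others, whereas in covered wounds the 2 arrays were at -0.30 and -0.26, within the range of the group. The part of this in the members' pattern was not tested. The arrays were singled out after their values were seen. At day 5 the 2 arrays with the highest member means were the 2 highest in 8 members in uncovered wounds (5.80% of bright AF probes). In covered wounds they were in 10 (13.8%). The median SD of a member within its group was 0.46 at day 0, 0.35 and 0.34 at day 3 (uncovered and covered), and 0.19 and 0.27 at day 5. Over the 7795 AF probes the corresponding medians were 0.30, 0.29, 0.18, 0.16 and 0.27. The early groups of the members were thus the more uneven ones, and the SD of the member mean was 0.44 at day 0 and 0.07 at day 5 in both arms.

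The spread differed widely among members. UF_Ocu_AF_100701 had the largest pooled SD within groups, 0.70, followed by UF_Ocu_AF_108024 at 0.62. UF_Ocu_AF_105162 had the smallest, 0.16. The latter was at 9.91 and 10.40 in unwounded skin and ran from 9.99 through 10.15 to 10.38 at day 0. It went in uncovered wounds from 9.87, 9.97 and 10.096 to 11.10, 11.20 and 11.37, and in covered wounds from 9.90, 9.89, 10.03, 10.35 and 10.16 to 11.56, 11.23, 11.29, 11.09 and 11.15. It gave gains of 1.24 ± 0.054 and 1.2 ± 0.12, modest in size but far from any overlap. UF_Ocu_AF_105960 showed the opposite, with day 5 arrays from 9.48 to 11.31 in uncovered wounds and at 9.25, 10.89, 10.53, 11.07 and 10.46 in covered ones. Its highest day 3 arrays were at 9.61 and 9.65, so that 1 day 5 array of each arm lay below them.

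Arrays of 1 slide were also set against each other, since a slide is hybridised as a unit. On each of the 4 slides that held 1 uncovered day 3 and 1 uncovered day 5 array, all 33 probes were higher at day 5, with median differences of 1.22, 1.21, 1.61 and 1.86. On the 2 slides with such a covered pair, all 33 were again higher, with medians of 1.09 and 1.33. The same differences over the 7795 AF probes had medians from -0.08 to -0.0027. These are the arrays whose means the rule compared, so the direction was largely fixed by the choice. The difference was at least 1 in 31, 22, 30 and 33 probes on the uncovered slides and in 17 and 29 on the covered ones. Of the 7795 AF probes, 3.68%, 3.02%, 5.30% and 12.2% passed this on the uncovered slides, in the same order. On the covered slides 3.50% and 5.13% did.

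The size of a gain depended on the scale for dim members. All 33 probes were well above background on all 11 day 5 arrays and none was saturated on any array. Only 20 were well above background on all 30 arrays, 5 were on 25 to 29, and 8 on under 25, so the early levels of those 13 are partly near the detection limit. On the authors' scale, the 20 had median gains of 1.48 and 1.2 and the 13 had 1.48 and 1.3. In the scanner signals, log2 of the processed signal relative to each array's 75th percentile, the 20 had 1.85 and 1.59 and the 13 had 3.15 and 2.42. UF_Ocu_AF_102141, detected on 3 of the 17 day 0 and day 3 arrays, gained 3.87 and 3.52 there against 1.71 and 1.41 in the authors' values. For UF_Ocu_AF_100701, detected everywhere, the same pair of scales gave 2.71 and 2.40 against 2.61 and 2.37. The scanner gain was the larger one in both arms for 32 of the 33.

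Nearly all contigs on the array carry 2 probes, which allows a second reading of the same contig by a probe the rule did not take. Another AF probe was present for 32 members. For 6 of them it was itself a member, and the other 26 had missed at least 1 condition. Of the 26, 10 never reached a group mean of 9, with highest group means from 7.77 to 8.75, and had median gains of 0.10 and 0.14. On the scanner scale, which shrinks dim differences less, the medians of those 10 were 0.73 and 0.81, and 4 of them gained at least 1 in both arms. Of the 10, 5 were well above background on no array, and those 4 on 1, 5, 2 and 2 arrays. Their scanner gains therefore rest mostly on signals near the detection limit. The 16 that were bright enough had median gains of 0.88 in uncovered and 0.77 in covered wounds, where the members on those contigs had 1.37 and 1.18. Of these 16, 9 gained at least 0.5 in both arms and 2 at least 1, whereas 4 gained under 0.5 in both and 3 were below 0 in at least 1 arm. Second probes were thus a mixed group.

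Single contigs show both cases. UF_Ocu_AF_108645, the partner of UF_Ocu_AF_108644, gained 1.90 and 1.40 and missed only the day 3 conditions, with day 3 minus day 0 at -0.47 and -0.44. UF_Ocu_AF_108487, beside UF_Ocu_AF_108488, gained 1.09 and just under 1.00 in covered wounds. UF_Ocu_AF_103170, beside UF_Ocu_AF_103169, gained 0.90 and 0.76. In contrast, UF_Ocu_AF_112026, beside UF_Ocu_AF_112025, was well above background on no array. UF_Ocu_AF_102140, beside UF_Ocu_AF_102141, was so on only 5, yet its day 5 arrays lay above its day 3 arrays in both arms. It gained 0.57 and 0.50 on the authors' scale and 2.87 and 2.54 in the scanner signals. UF_Ocu_AF_101313 had a gain of 0.61 and 0.40 against 1.40 and 1.68 for UF_Ocu_AF_101312 and a mean up to 15.37, so the 2 probes of that contig followed different courses. For comparison, on the 3321 contigs with exactly 2 bright AF probes the gains of the 2 probes correlated at r = 0.84 and 0.82, probes of 1 contig sharing samples and often a transcript. Of 122 bright probes that gained at least 1 in both arms and had 1 bright partner, the partner did so in 68 (55.7%).

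**Figure D4:**
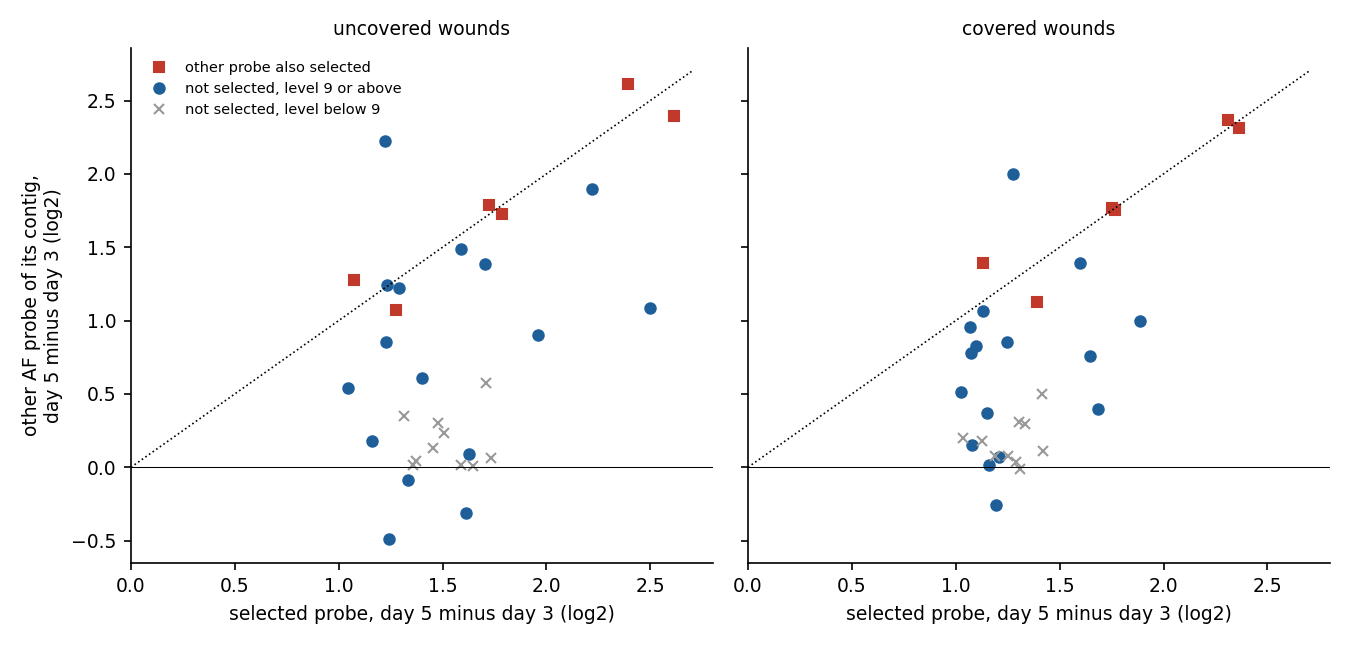
Gain from day 3 to day 5 of each selected probe (x, log2) against that of another AF probe of its contig (y, log2), in uncovered (left) and covered wounds (right); the dotted line marks equal gains. Pairs of 2 selected probes lie near the line, the 16 bright partners scatter mostly below it, and the 10 dim ones lie near 0.

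The base composition of many, though not all, members differed from that of the class. Purines (A and G) made up a median of 58.3% of the bases of a member and 50% in the 7795 AF probes of that brightness. At least 60% purine was found in 15 of 33 members (45.5%) and in 13.8% of the bright AF probes. The run AGAAGA, searched on the printed strand, was in 8 members (24.2%) and in 4.59% of bright AF probes, and its other strand was in 0 members and 2.31%. The run AATAAA, the sequence of the common signal for polyadenylation, was in 0 members and in 13.0% of bright AF probes, and its other strand in 0 and 4.58%. The other AF probes of the members' contigs stood between, with a median of 51.7% purine, AGAAGA in 3 of 26 and AATAAA in 1. Members with a shared contig are not independent, and a match to a short run says only that these letters are there.

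Composition went with the gain in the whole class. For purine content the correlation with the gain over the bright AF probes was r = 0.12 in each arm. Among bright AF probes with under 40% purine 1.28% gained at least 1 in both arms (11 probes, 0 of them members). Among those with 65% or more 9.74% did (34 probes, 9 of them members). Of those with AGAAGA 6.70% did, against 1.92% of those without, so these features are not separate from the gain by which members were chosen. For G and C content, the median gain in uncovered wounds went from -0.40 at 35 to 40% to 0.37 at 60% or more. That in covered wounds went from -0.30 to 0.27 at 55 to 60% and was 0.19 at 60% or more. Across the 7795 probes, G and C content correlated with the gain at r = 0.46 in uncovered and 0.38 in covered wounds, but at 0.01 with uncovered day 3 minus day 0 and -0.07 with covered day 3 minus day 0. These probes share the same arrays and are not independent. Within contigs, 2273 pairs of bright AF probes differed in G and C content. The probe with more G and C had the larger uncovered gain in 59.7% of those pairs and the larger covered gain in 48.9%. Uncovered arrays of day 5 were also at or below the brightness of those of day 3, whereas the covered ranges overlapped. The 75th percentile of log2 signal over probes detected on all arrays was 11.92 to 12.71 in uncovered wounds at day 5 and 12.71 to 13.22 at day 3. It was 12.51 to 13.98 in covered wounds at day 5 and 12.84 to 13.33 at day 3, and the first covered day 5 array, at 13.98, was the brightest of all 30.

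The members had a median G and C content of 45%, against 43.3% for bright AF probes, and spanned 35 to 85%. Relative to the median gain of bright AF probes with the same G and C content, 26 of the 33 had a gain of at least 1 in both arms, again a measure chosen after seeing the data. UF_Ocu_AF_100701 kept 2.57 and 2.28, and UF_Ocu_AF_105162, at 35% G and C, rose to 1.67 and 1.53 on this measure. UF_Ocu_AF_113148, at 85%, had no other bright AF probe of its content and could not be compared. On the first covered day 5 array, the correlation of such deviations with G and C content was -0.17, against a group median of 0.21, and the member mean there was 11.41, the highest of its group. That array had 595 outlying spots and 50.1% of probes well above background. Without both arrays of its slide, a check chosen after seeing the data, 37 probes met the rule, 29 of them among the 33. The part of base composition, or of array brightness, in the gain was not tested beyond these values.

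**Figure D5:**
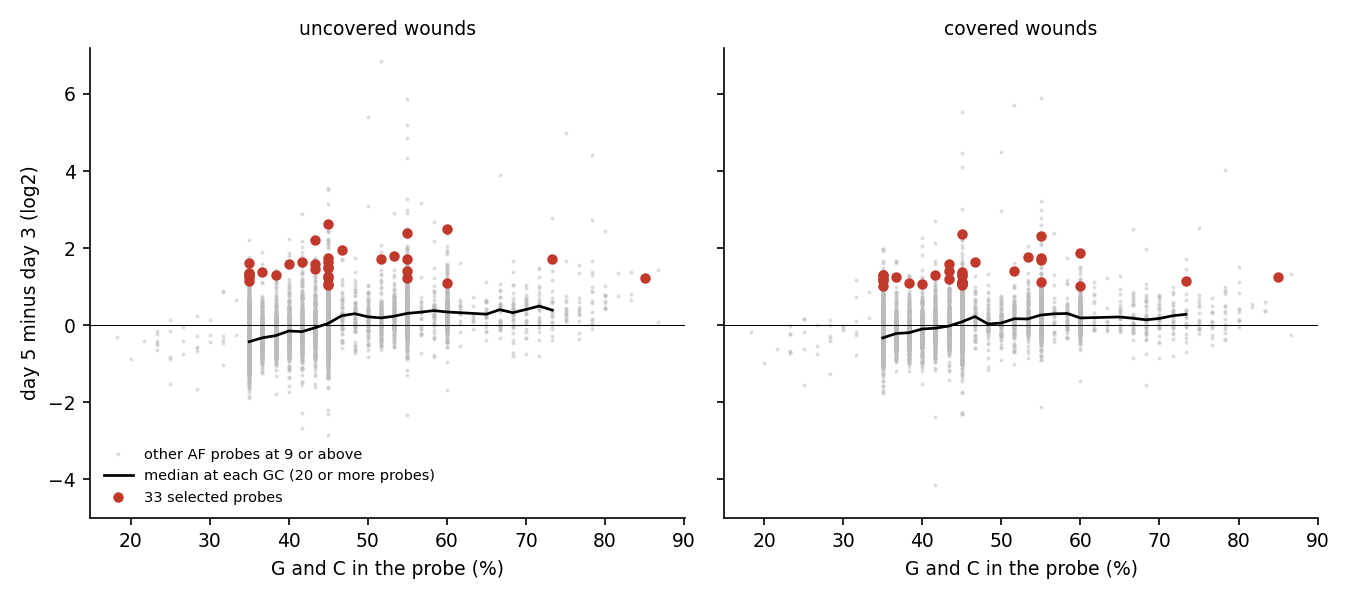
Gain from day 3 to day 5 (y, log2) against the G and C content of the probe (x, percent) in uncovered (left) and covered wounds (right), for the 33 selected probes (red) and the other AF probes with a group mean of at least 9 (grey). The black line is the median at each content with at least 20 probes and is higher at high than at low content. The selected probes lie above it at every content where it is drawn.

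Most thresholds of the rule, though not all, had probes close by on both sides. The member with the lowest uncovered gain was UF_Ocu_AF_108280 at 1.04, and the nearest probe outside, UF_Ocu_AF_113129, gained 0.996. For covered wounds UF_Ocu_AF_101594 was inside at 1.01 and UF_Ocu_AF_114166 outside just under 1.00, 1 of 49 probes that missed only this condition. Day 3 minus day 0 differed in size by 0.40 in UF_Ocu_AF_104903 and by 0.41 in UF_Ocu_AF_114121 for uncovered wounds, and by 0.39 in UF_Ocu_AF_108488 and 0.40 in UF_Ocu_AF_100883 for covered ones. Day 0 and unwounded skin differed by 0.96 in UF_Ocu_AF_108280 and by 1.06 in UF_Ocu_AF_100426. The 2 arms at day 5 differed by 0.66 in UF_Ocu_AF_102411 and by 1.02 in UF_Ocu_AF_102478, so the threshold of 0.8 fell in a gap. The dimmest member, UF_Ocu_AF_100605, had a highest group mean of 9.42, and no probe missed the level condition alone.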

How the data were processed

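Per the file headers, spot intensity in the scanner output was background-subtracted with Feature Extraction, Agilent's program, and other columns flag spots by detection, saturation and outlying pixels. In the authors' series table, intensity is linear and nearly equal in distribution between arrays (medians 288 to 293). On the log2 scale it correlated at r = 0.926 to 0.982 with the scanner signals, so scale and direction are known. Its background correction is not given in the sources used here. Limma is named in the submitters' processing notes.

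Members were taken from log2 of the authors' values, and levels, gains and SDs in the text are on that scale unless another is named. Members and lists were chosen with earlier results of these data known. For the fit, scanner signals were log2-transformed, spots of a probe averaged, outlying spots left out, and each array's 75th percentile over 7446 probes well above background on all arrays subtracted. Probes detected on 2 or more arrays (12342) entered 1 model of 6 groups without a block (limma 3.58.1, lmFit then eBayes, R 4.3.3), tested on simulated data; its p-values are 2-sided. The median change of all tested probes was 0.27 (uncovered) and 0.12 (covered) from day 3 to day 5. Named probes were the 10 with the largest smaller gain, probes sharing a contig with them or with another member, threshold neighbours, and extremes of spread and of distance from unwounded skin; UF_Ocu_AF_100204, UF_Ocu_AF_105960 and UF_Ocu_AF_113148 were added after their values were seen. The number of arrays limits the precision.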

Additional observations from a re-analysis of the deposited data

Results flagged for a closer look

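UF_Ocu_AF_108644 on covered day 5 replicate 1 was at 9.80, apart from the other 4 arrays of its group, which lay between 10.82 and 10.97. It was the only array so far from its group. The check covered 125 groups of 5 or 6 arrays, for the member mean and the named members. In independent groups chance alone would flag about 1 in 20. These 125 groups share the same arrays, so the single flag cannot be set against that rate. The array had 595 outlying spots, the most of all 30 arrays, and the part of that in this value was not tested.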

How the results depend on the processing

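The number of selected probes depended on the thresholds and the scale. With gain thresholds of 0.8 it was 92, and with 1.2 it was 19. On the scaled scanner values without a level threshold it was 222, of which 17 were among the 33. With every design class it was 45, and leaving out 1 array at a time gave 28 to 43. In the limma fit the count of members called higher at day 5 stayed at 33 for uncovered wounds under all alternatives run. For covered wounds it lay between 31 and 33. The choice of probes used the same contrasts, so nothing is read from these counts. The members' median gain was 2.06 and 1.80 in the fit, with 1.48 and 1.25 on the authors' values. Every change was under the members' median pooled SD of the scaled scanner values, 0.64. On the authors' values that SD was 0.35, and the change between the 2 scales was larger than this in both arms. For single named probes, 42 of 1872 recomputed gains moved by over their pooled SD of the scaled scanner values. All were without a change of sign, and 41 of them were under the authors' values or normexp background correction.

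Replicate numbers did not pair the samples in a regular way: the deviations of same-numbered day 3 and day 5 arrays correlated at -0.41 to 0.38. Uncovered replicates 1, 2 and 3 and covered replicate 2, whose day 3 and day 5 arrays share a slide, correlated best with their own number, at 0.26, 0.30, 0.38 and 0.30. A shared slide and a shared animal cannot be told apart in these pairs. With slide as a block, 33 members were called in each arm and the median gains were 1.95 and 1.75. With the replicate block, 33 members were called in each arm and the median gains were 2.06 and 1.80. Nothing is read from the counts under either block, since the members were chosen on these contrasts. Early levels of the 13 members not detected on all arrays are limited by the signal over background.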
